A study of Mus musculus with 27 samples.

Results

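Mouse embryonic fibroblasts without PKBalpha were compared with wild-type fibroblasts 4 h after gamma irradiation with 10 Gy. The tested cells were a PKBalpha knockout line (-/-), with 3 arrays at 4 h, and the other side was a wild-type line, with 3 arrays at 4 h. The members were chosen by the genotype and time in the sample titles, which gave 6 of the 27 arrays of the study. Used beside them were the knockout and wild-type lines without irradiation and 24 h after 10 Gy (3 arrays each), and the line labelled R 4 h after 10 Gy (3 arrays), which the labels describe as knockout cells rescued for PKBalpha. The labels give female cells at passage 45 in medium with 10% serum, cultured for 24 h before irradiation, and 3 biological replicates per condition. Each genotype is represented by 1 line, so the spread between arrays is that within a line, and genotype cannot be told apart from any other difference between the lines. Untreated cells are the stated reference, and no irradiation control was taken at 4 h, so irradiation cannot be told apart from time in culture. The descriptions of some irradiated wild-type samples call them untreated, and their titles decided the group.

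PKBalpha is the protein made by Akt1, a kinase downstream of growth factor receptors and PI3 kinase that acts on metabolism, growth and survival, in part by keeping FOXO transcription factors out of the nucleus. DNA breaks made by gamma rays switch on the kinase ATM and the transcription factor p53, whose targets stop the cell cycle, feed back on p53 through Mdm2 or promote cell death. Cholesterol synthesis is run by SREBP transcription factors, which switch on nearly all of its enzymes together when sterols are low. In fibroblasts, the HOX genes in use reflect where along the body axis the cells came from.

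Values are intensities of 1 probe set per gene, the brightest, and group values are geometric means of 3 arrays. Differences are knockout minus wild type in log2 units with their standard error. Tests are by limma over all 27 arrays with Benjamini-Hochberg adjustment over 18193 genes, a gene is called where the adjusted p is under 0.05, and a level counts as above background where it exceeds 48.3, the highest value of the probe sets of 3 Y-linked genes in these female cells. The 6 arrays had the same trimmed mean by the authors' scaling, medians of 54.7 to 66.2 and 10577 to 11297 genes above background, and the number of arrays limits the precision. Replicate arrays differed by a median SD of 1.35 log2 in the dimmest 10% of genes and 0.112 log2 in the brightest 10%. Replicate 0 of the wild type at 4 h stood apart with 4 arrays outside this comparison: their log2 ratio of the 3′ to the 5′ probe set of Gapdh was -0.187 to 0.16, against -0.466 to -0.298 on the other 22 arrays. Results that rest on it are given with and without these 5 arrays. Fibroblast markers marked both lines, with sums of 159000 to 178000 in the knockout and 137000 to 166000 in the wild type. All 14 were above background in at least 1 of the lines. The text names the largest differences and up to 4 genes a list by smallest p, and genes named beyond these were chosen after their values had been seen.

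The Akt1 mean of the knockout lay below background, with replicate 2 above it. It measured 22.8, 34.1 and 65.5 in the knockout at 4 h, against 4500, 4550 and 3540 in the wild type. The groups did not overlap, and knockout Akt1 was lower by at least 78-fold (-6.81 ± 0.87 log2, limma adjusted p = 1.1e-05). A second probe set averaged 11 in the knockout and 2370 in the wild type. Without irradiation Akt1 averaged 14.6 in the knockout and 3530 in the wild type, and at 4 h it averaged 19.6 in the line labelled R, so this probe set shows no Akt1 mRNA from the rescue that the label states, and a construct it does not match was not tested. Akt2, another isoform of the kinase, was at 658, 634 and 809 in the knockout, against 823, 897 and 795 in the wild type. The Akt2 ranges overlapped and the difference did not pass the test (-0.27 log2, limma adjusted p = 0.25).

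At 4 h the lines differed in 2685 of 18193 genes (14.8%), of which 1073 (5.9%) were higher and 1612 (8.86%) lower in the knockout. Of the called genes 1594 differed by more than 2-fold, and 143 were below background in both groups. The knockout mean lay below background for 441 of the lower genes, and the wild-type mean for 163 of the higher ones. The direction of these counts depends on scaling: 40% of calls were higher with the deposited scaling, 50.6% after quantile normalization and 70.3% with equal array medians, where the median difference of all genes moved to 0.231 log2, against -0.05 as deposited. The 3 knockout arrays lay wholly above the 3 wild-type arrays for 16% of genes and wholly below them for 19.8%. Without the 5 arrays 3502 genes were called (19.2%; 8.54% higher and 10.7% lower), 2406 of them among the 2685.

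Most genes called at 4 h were also called without irradiation. In untreated cells 3202 genes were called (17.6%), with 1413 higher (7.77%) and 1789 lower (9.83%) in the knockout. Of the 2685 genes called at 4 h, 1994 were called untreated too, which is 74.3% of the 4 h calls and 62.3% of the untreated calls. These comparisons share no array, and 1993 of the 1994 had the same direction, 777 higher and 1216 lower, with C430042M11Rik as the exception. Across the 11372 genes above background in either line at 4 h the 2 differences had a Pearson correlation of 0.92, where genes are not independent and the points share the 2 lines. The lines still differed in 3399 genes (18.7%) at 24 h, 8.6% higher and 10.1% lower in the knockout.

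**Figure D1:**
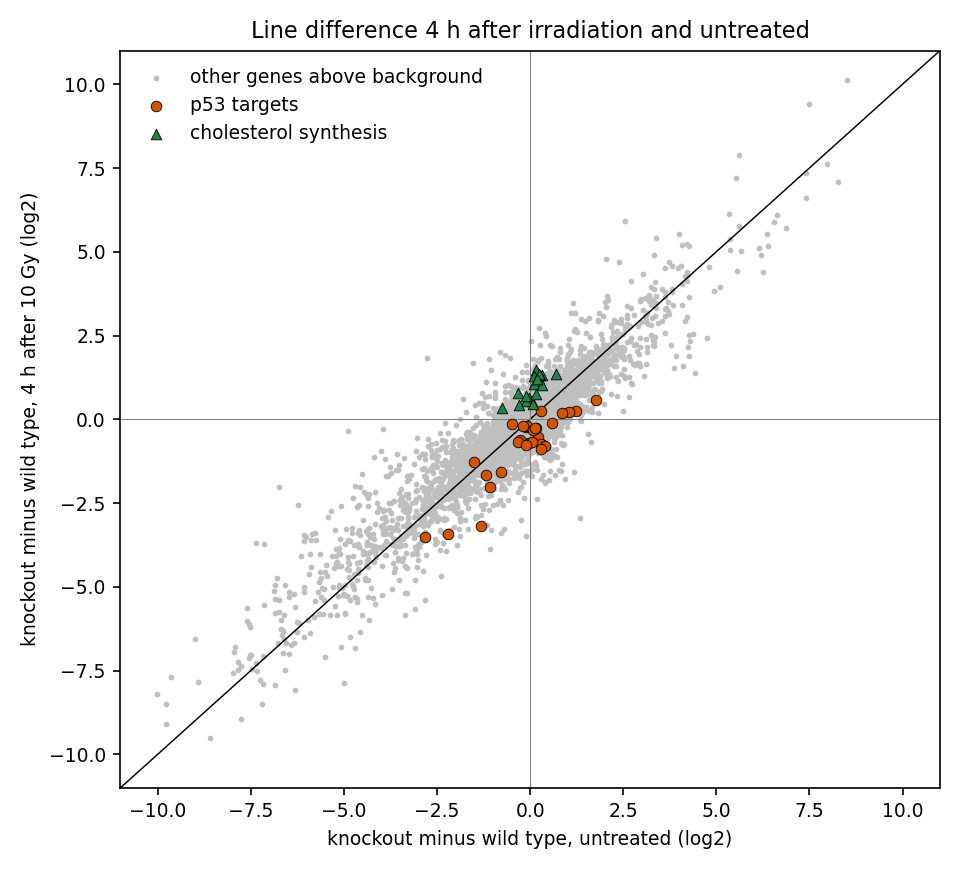
Knockout minus wild-type difference (log2) at 4 h after 10 Gy, vertical axis, against the same difference in untreated cells, horizontal axis, for 11372 genes above background in either line at 4 h, with p53 targets as orange circles and cholesterol synthesis genes as green triangles. Most genes lie near the line of equality, while p53 targets tend to lie below it (median difference -0.67 at 4 h and -0.05 untreated) and cholesterol genes above it (1.01 and 0.10).

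Whether a gene's difference at 4 h departed from that in untreated cells was tested directly. Only 2 genes passed (0.011%), C430042M11Rik and D630004K10Rik, and both were below background in all 4 groups. With the replicate number as a block 1 gene passed. Same-numbered untreated arrays correlated, but replicate 2 of both untreated lines is among the 5 arrays. The part of this in the correlation was not tested. At an unadjusted p below 0.05 there were 998 genes (5.49%), 495 with the larger and 503 with the smaller knockout-minus-wild-type difference at 4 h. Without the 5 arrays 19 genes passed (0.104%), and 4 of these were p53 targets. With all arrays the median departure was 0.86 log2 for cholesterol synthesis and -0.69 log2 for the p53 targets, and without the 5 arrays it was 0.68 and -0.84 log2.

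Among 34 measured p53 targets, 12 were lower and 0 higher in the knockout at 4 h, against 8.86% and 5.9% of all genes. The median difference of the list was -0.67 log2 (all genes -0.05) and 28 of 34 differences were negative. Cdkn1a, which makes p21, the inhibitor of cyclin-dependent kinases that holds damaged cells before S phase, measured 234, 284 and 193 in the knockout, against 1490, 3450 and 1880 in the wild type. Every knockout array was below every wild-type array, and Cdkn1a was 9.12-fold lower (-3.19 ± 0.39 log2, limma adjusted p = 5.6e-06). Ccng1, cyclin G1, which recruits a phosphatase to Mdm2, measured 1880, 1950 and 1960 in the knockout, against 5450, 9570 and 8980 in the wild type. The knockout arrays lay close together below a wider wild-type range, and Ccng1 was 4.02-fold lower (-2.01 ± 0.22 log2, limma adjusted p = 1.5e-06). Trp53inp1, a stress protein that aids p53 and autophagy, measured 111, 95.8 and 93 in the knockout, against 563, 1280 and 1630 in the wild type. This was the largest fold of the main targets, 10.6-fold lower in the knockout with no overlap (-3.41 ± 0.41 log2, limma adjusted p = 5.9e-06).

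The feedback and RNA-binding targets moved the same way with less certainty for Mdm2. Zmat3, an RNA-binding zinc finger protein, measured 513, 549 and 549 in the knockout, against 1210, 2210 and 1800 in the wild type, and was 3.15-fold lower (-1.66 ± 0.23 log2, limma adjusted p = 2.9e-05). Mdm2, the ubiquitin ligase that marks p53 for breakdown, measured 885, 851 and 801 in the knockout, against 1080, 3280 and 4560 in the wild type. The groups did not overlap, but the wild-type arrays spread widely, and Mdm2 passed only just (-1.58 ± 0.53 log2, limma adjusted p = 0.05 after rounding up). The call was lost in 10 of 17 alternatives, among them the fit with the replicate block (limma adjusted p = 0.064) and those without each knockout replicate. Without the 5 arrays the Mdm2 difference was -2.19 log2 (limma adjusted p = 7.2e-06), and a second probe set averaged 648 in the knockout and 1940 in the wild type. Replicate 0, which stood apart in the Gapdh ratio, was the lowest wild-type array for all 5 of these genes, and without it Cdkn1a differed by -3.45 log2 and Ccng1 by -2.26 log2. The part of RNA quality in that lower level was not tested.

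**Figure D2:**
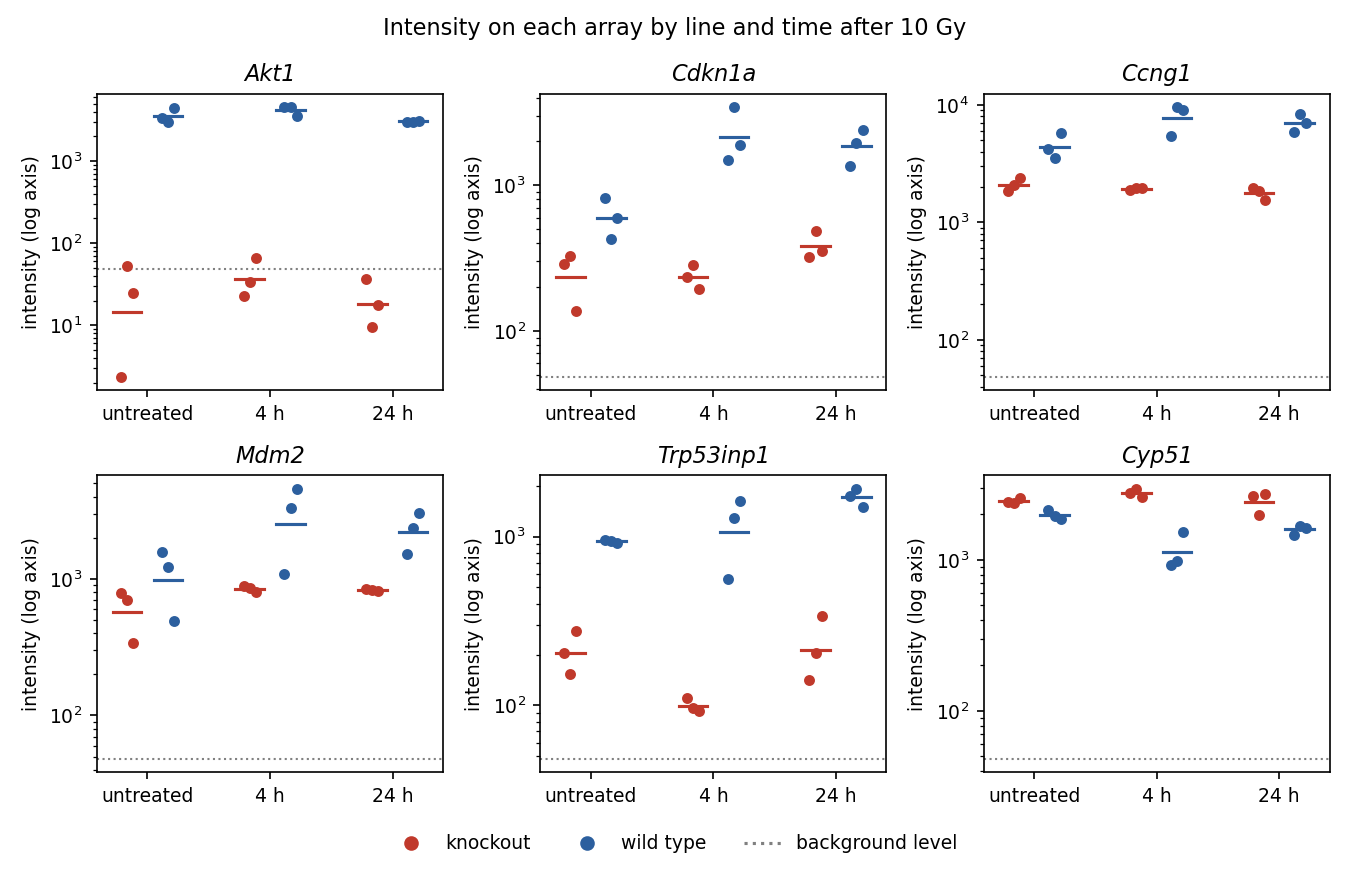
Intensity (log axis) of Akt1, Cdkn1a, Ccng1, Mdm2, Trp53inp1 and Cyp51 on each array of the knockout (red, left) and the wild type (blue, right), untreated and 4 h and 24 h after 10 Gy. Points are arrays, bars the geometric mean of 3 and the dotted line the background; Cdkn1a at 4 h is 193 to 284 in the knockout and 1490 to 3450 in the wild type.

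The other 7 lower targets were smaller in size apart from Ackr3. Ackr3, a scavenging receptor for CXCL12, averaged 32.7 in the knockout and 376 in the wild type, at least 7.79-fold lower (limma adjusted p = 0.00051). Epha2, an ephrin receptor kinase, averaged 445 in the knockout and 1060 in the wild type (-1.26 ± 0.20 log2, limma adjusted p = 0.00014). Both were lower in the untreated knockout too, by -2.81 log2 for Ackr3 and -1.51 log2 for Epha2. Apaf1, the core of the apoptosome, averaged 764 in the knockout and 1310 in the wild type. Ei24, an endoplasmic reticulum protein, averaged 2030 and 3320 in the same order, and Phlda3, which competes with Akt for membrane lipids, 1100 and 1850. These 3 differed at 4 h by -0.78, -0.71 and -0.74 log2 with limma adjusted p of 0.011, 0.0092 and 0.0056, and none of the 3 passed in untreated cells. Dcxr, a sugar and carbonyl reductase, and Ercc5, an endonuclease of nucleotide excision repair, differed by -0.89 and -0.67 log2. Bbc3, which makes PUMA, averaged 152 in the knockout and 128 in the wild type (limma adjusted p = 0.66), and Pmaip1, which makes NOXA, 77.6 and 51.8 (limma adjusted p = 0.7). The death receptor Fas averaged 410 in the knockout and 592 in the wild type (limma adjusted p = 0.32). These 3 genes, which promote cell death as Apaf1 does, did not pass.

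Part of the p53 target difference was also seen in untreated cells. In untreated cells 6 targets were lower and 2 higher in the knockout, against 9.83% and 7.77% of all genes. Those 6 were among the 12 of 4 h, while the list median was -0.05 log2. Cdkn1a averaged 235 in the untreated knockout and 592 in the untreated wild type (-1.33 log2, limma adjusted p = 0.02), and the difference at 4 h exceeded it by -1.86 ± 0.55 log2 (unadjusted p = 0.003, limma adjusted p = 0.54). Trp53inp1 averaged 205 in the untreated knockout and 939 in the untreated wild type. The departure from the untreated difference had a median of -0.69 log2 over the list (all genes -0.04), and 11 of 34 genes were at an unadjusted p below 0.05 in the lower direction, against 2.76% of all genes. None of the 34 passed after adjustment, where the smallest limma adjusted p was 0.39. Without the 5 arrays 4 passed: Phlda3 (-1.33 ± 0.21 log2, limma adjusted p = 0.033), Ccng1 (-1.29 ± 0.21, 0.034), Gtse1 (-1.61 ± 0.27, 0.042) and Ei24 (-0.85 ± 0.14, 0.042), and 14 targets were lower at 4 h (10.7% of all genes) with 0 higher. With equal array medians 7 targets were lower and 0 higher, against 5.81% and 13.8% of all genes, and a fit of the compared arrays alone gave the same counts (6.81% and 4.04% of all genes).

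At 24 h, 8 targets were lower and 1 higher in the knockout, against 10.1% and 8.6% of all genes. Cdkn1a averaged 380 in the knockout and 1860 in the wild type at 24 h (-2.29 log2, limma adjusted p = 0.00021), and Trp53inp1 214 and 1710. The line labelled R, read against the same wild-type arrays, had Cdkn1a at 155, 121 and 172, Ccng1 at 2060, 2260 and 2050 and Trp53inp1 at 109, 260 and 108 at 4 h. All of these lie below the wild-type arrays, as the knockout values do.

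The promoters of Cdkn1a and Ccng1 are shown because these are well-known p53 targets and among the lower genes with the smallest p. Both come from RefSeq (GRCm38.p6), from 250 bases before to 50 after the start, and matches to the p53 half-site consensus are in capitals. The Cdkn1a promoter (chr17:29090729-29091028, plus strand) has matches that begin 73 and 51 bases before the start, and that of Ccng1 (chr11:40755237-40755536, minus strand) has 1 match, 185 bases before it. Such a match stood in 10 of 25 p53 targets with a promoter in the table, in 5 of the 10 lower ones, and in 9.55% of all 27025 promoters on either strand. A match is a description and not a bound site.
Cdkn1a: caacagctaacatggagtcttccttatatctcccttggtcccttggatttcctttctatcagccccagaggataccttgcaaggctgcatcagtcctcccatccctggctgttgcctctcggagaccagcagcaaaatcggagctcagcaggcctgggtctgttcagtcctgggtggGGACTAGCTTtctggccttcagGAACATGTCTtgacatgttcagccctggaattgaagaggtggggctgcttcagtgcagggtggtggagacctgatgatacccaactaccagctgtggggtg
Ccng1: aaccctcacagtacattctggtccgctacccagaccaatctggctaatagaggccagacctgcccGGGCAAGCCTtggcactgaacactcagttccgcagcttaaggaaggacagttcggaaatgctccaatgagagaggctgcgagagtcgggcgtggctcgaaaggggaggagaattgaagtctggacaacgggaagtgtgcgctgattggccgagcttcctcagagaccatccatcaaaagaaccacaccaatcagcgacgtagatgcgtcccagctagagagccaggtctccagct

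Cholesterol synthesis ran the other way. Of 19 measured genes 14 were higher and 0 lower in the knockout at 4 h, all 19 differences were positive, and their median was 1.01 log2 (all genes -0.05). The summed intensity of the list was 51800 to 62200 on the knockout arrays and 23700 to 37300 on the wild-type arrays. Cyp51, the lanosterol demethylase, measured 2780, 2960 and 2610 in the knockout, against 928, 988 and 1520 in the wild type. The groups were well apart, and Cyp51 was 2.48-fold higher (1.31 ± 0.16 log2, limma adjusted p = 4.7e-06). Hsd17b7, a reductase of sterol intermediates, measured 2510, 2450 and 1860 in the knockout, against 813, 847 and 994 in the wild type. It was 2.56-fold higher without overlap (1.35 ± 0.19 log2, limma adjusted p = 2.9e-05). Nsdhl, which acts with it on the sterol ring, measured 3040, 2980 and 2270 in the knockout, against 730, 1250 and 1360 in the wild type, a 2.55-fold difference (limma adjusted p = 0.0001). Dhcr7, the last enzyme of the path, measured 745, 746 and 635 in the knockout, against 310, 250 and 373 in the wild type, a 2.30-fold difference (limma adjusted p = 8e-05). For each of these 4 enzymes, picked by smallest p, the lowest knockout array lay above the highest wild-type array. Over the whole list this held for 18 of 19 genes, against 16% of all genes.

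Enzymes on both sides of lanosterol were higher. Before lanosterol, Hmgcs1, which makes HMG-CoA, averaged 8890 in the knockout and 4060 in the wild type (limma adjusted p = 0.0028). Pmvk, a kinase, averaged 718 in the knockout and 458 in the wild type, and Mvd, a decarboxylase, 549 in the knockout and 265 in the wild type. The isomerase Idi1 averaged 3980 in the knockout and 1440 in the wild type (1.46 ± 0.26 log2, limma adjusted p = 0.00037), the largest difference of the list. Fdps, which makes farnesyl diphosphate, averaged 8080 in the knockout and 3320 in the wild type, and Fdft1, which makes squalene, 4760 in the knockout and 2360 in the wild type. Squalene is then oxidised by Sqle (5450 in the knockout, 3710 in the wild type) and closed to lanosterol by Lss (1760 and 1030). After lanosterol, the demethylating oxidase Msmo1 averaged 7000 in the knockout and 2810 in the wild type, and the desaturase Sc5d 3000 in the knockout and 1780 in the wild type. All 10 of these passed the test. The 5 members that did not were Mvk (limma adjusted p = 0.06), Ebp (0.065), Insig1 (0.12), Stard4 (0.14) and Tm7sf2 (0.66).

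Few cholesterol genes were called without irradiation. Only 1 of 19 passed in untreated cells (17.6% of all genes), Hsd17b7, and the median untreated difference was 0.10 log2. Cyp51 averaged 2460 in the untreated knockout and 1990 in the untreated wild type, and its difference at 4 h was larger than that by 1.00 ± 0.22 log2 (unadjusted p = 0.00022, limma adjusted p = 0.25). The median departure over the list was 0.86 log2 (all genes -0.04), and 15 of 19 genes were at an unadjusted p below 0.05 in the higher direction, against 2.72% of all genes, with none past the adjusted threshold. Without the 5 arrays 14 genes were higher (8.54% of all genes) and 0 lower, with a median of 0.84 log2, and Cyp51 differed by 1.18 log2. With equal array medians 18 were higher (13.8% of all genes, where 19.6% were called in all). In a fit of the compared arrays alone 7 were higher and 0 lower, against 4.04% and 6.81% of all genes (10.9% in all).

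The knockout sums at 4 h, 51800 to 62200, overlapped the untreated knockout sums of 57500 to 61300, while the wild-type sums at 4 h, 23700 to 37300, lay below the untreated wild-type sums of 49300 to 57700. At 24 h the sums were 48200 to 61800 in the knockout and 34900 to 43000 in the wild type. Of the 19 genes 4 were higher then, against 8.6% of all genes. In the line labelled R at 4 h the sums were 36600 to 37900, below the knockout range and overlapping the upper end of the wild-type range. Cyp51 was at 1870, 2090 and 1750 in that line, between its knockout and wild-type arrays. Scd1, a desaturase from the fatty acid list that is also driven by SREBP, measured 4280, 3970 and 3640 in the knockout, against 2160, 2440 and 2310 in the wild type, and was higher (0.78 ± 0.14 log2, limma adjusted p = 0.00054), with an untreated difference of -0.02 log2. Of the other 16 measured fatty acid genes 2 were higher and 2 lower, and Fasn, the fatty acid synthase, did not pass (3770 in the knockout, 2840 in the wild type, limma adjusted p = 0.44).

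**Figure D3:**
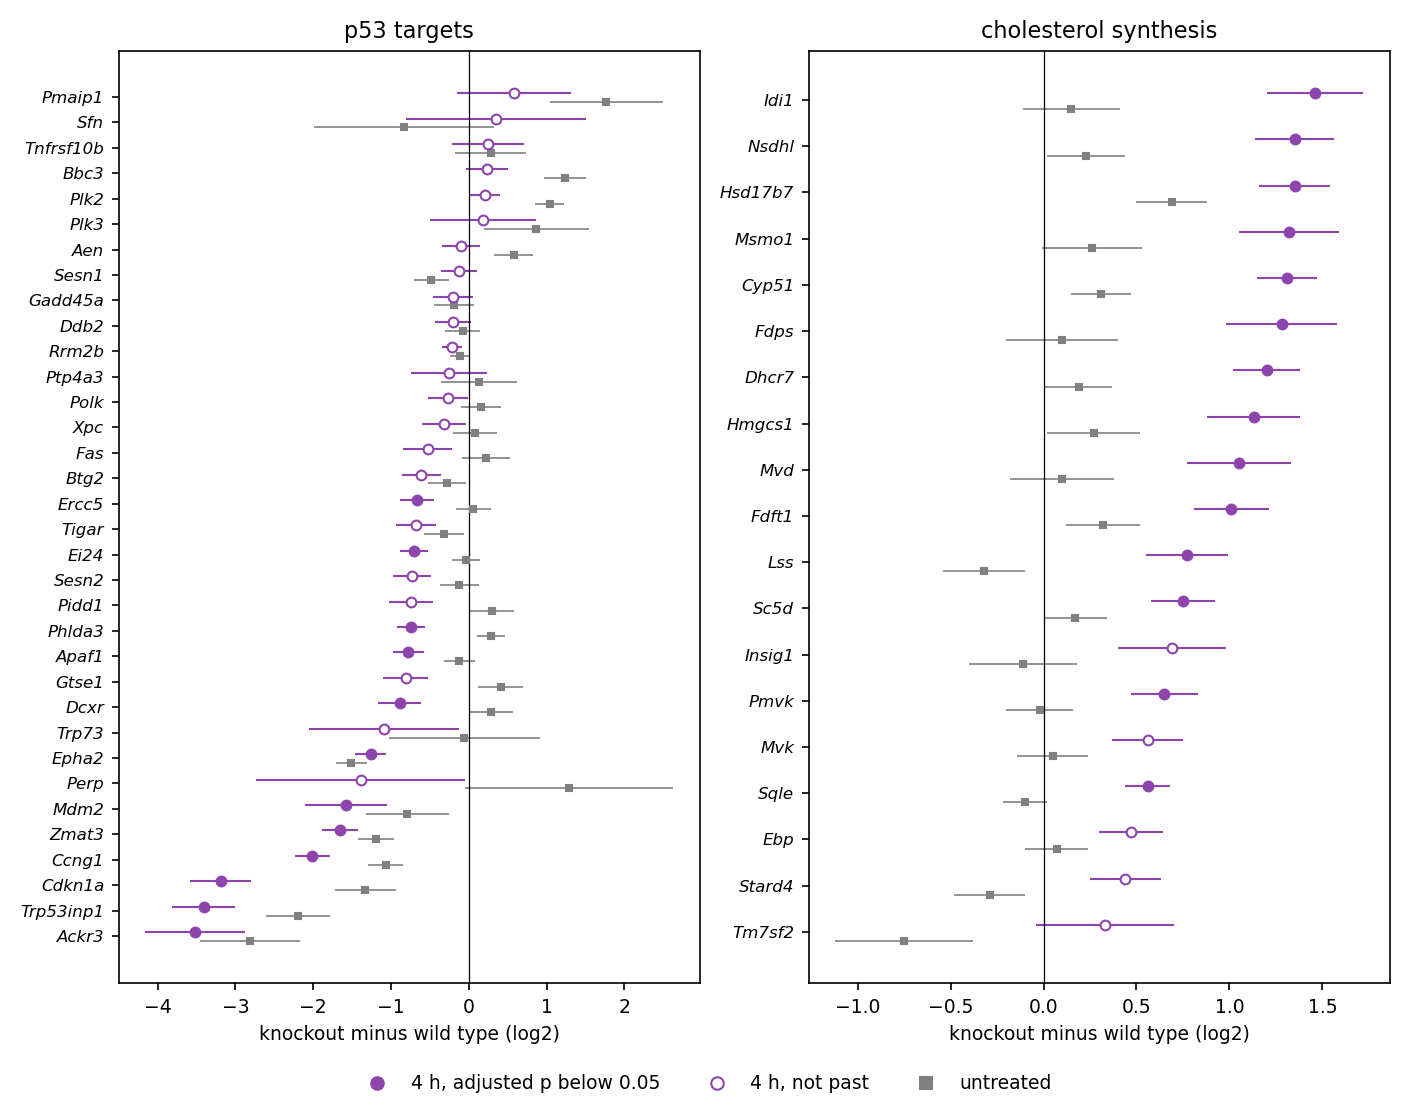
Knockout minus wild-type difference (log2, ± SE) of 34 p53 targets and 19 cholesterol synthesis genes at 4 h (purple circles, filled where the limma adjusted p is under 0.05) and untreated (grey squares). At 4 h 12 p53 targets are filled, all below 0, and 14 cholesterol genes, all above 0; the untreated squares lie nearer 0 for the cholesterol genes.

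The promoters of Cyp51 and Nsdhl are shown because both enzymes were among the 14 higher genes of their pathway. In these RefSeq sequences (GRCm38.p6) the capitals mark CCAAT and its reverse complement ATTGG, the box bound by NF-Y, a partner of SREBP. Cyp51 (chr5:4104648-4104947, minus strand) has 1 box, 29 bases before the start, and Nsdhl (chrX:72918271-72918570, plus strand) has 4. All 15 cholesterol genes with a promoter in the table held a box on either strand, against 41.1% of 27025 promoters. The sterol element searched, TCACNCCAC on both strands, stood in 1 of the 15 and in 1.44% of all. The match describes these windows only.
Cyp51: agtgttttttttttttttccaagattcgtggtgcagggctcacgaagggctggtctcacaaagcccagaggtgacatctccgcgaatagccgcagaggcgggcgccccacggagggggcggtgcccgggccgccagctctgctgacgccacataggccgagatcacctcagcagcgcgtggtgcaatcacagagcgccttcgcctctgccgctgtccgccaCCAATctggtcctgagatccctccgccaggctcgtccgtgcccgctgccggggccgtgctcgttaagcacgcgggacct
Nsdhl: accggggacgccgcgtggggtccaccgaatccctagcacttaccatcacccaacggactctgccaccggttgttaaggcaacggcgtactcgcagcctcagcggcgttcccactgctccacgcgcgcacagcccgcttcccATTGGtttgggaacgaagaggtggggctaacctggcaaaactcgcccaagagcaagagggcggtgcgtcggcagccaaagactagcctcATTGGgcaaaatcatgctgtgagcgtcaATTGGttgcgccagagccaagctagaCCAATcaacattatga

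Cell cycle genes called at 4 h are read against 5.9% higher and 8.86% lower of all genes. Of 36 G2/M genes 2 were higher, near that share, and 0 lower in the knockout at 4 h, with a median of -0.04 log2. Untreated, 11 were higher and 0 lower, with a median of 0.43 log2, against 7.77% and 9.83% of all genes. The summed intensity of the list was 109000 to 123000 in the knockout and 108000 to 124000 in the wild type at 4 h, and 92900 to 123000 in the knockout and 83600 to 87000 in the wild type untreated. Those 2 genes were Ttk, a spindle checkpoint kinase at 1920, 2000 and 1950 in the knockout, against 1450, 1340 and 1390 in the wild type (0.49 ± 0.12 log2, limma adjusted p = 0.0067), and the kinetochore gene Ndc80 (0.52 ± 0.16 log2, limma adjusted p = 0.03). Ttk differed by 1.01 log2 in untreated cells and by 1.17 log2 at 24 h, when 17 G2/M genes were higher (8.6% of all genes). The departure from the untreated difference was lower at an unadjusted p below 0.05 for 12 of 36 genes, against 2.76% of all genes. Without the 5 arrays it was so for 28, where the share of all genes was 4.55%. None passed after adjustment. Of 34 S phase genes 2 were higher and 2 lower, near the shares of all genes. Of 18 genes of break sensing and end joining 0 were higher and 1 lower. Leaving out the 5 arrays, 5 G2/M genes were higher and 0 lower, and 2 break sensing genes were higher and 3 lower. The shares of all genes were then 8.54% higher and 10.7% lower.

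Regulators upstream of the cycle differed in both states. Ccnd1, cyclin D1, measured 3550, 3510 and 3270 in the knockout, against 5950, 9410 and 7560 in the wild type (-1.13 ± 0.18 log2, limma adjusted p = 0.00012), and its partner Cdk6 averaged 1390 in the knockout and 3300 in the wild type (limma adjusted p = 0.00073). Cdkn2c, which makes the Cdk inhibitor p18, averaged 922 in the knockout and 1690 in the wild type (-0.88 ± 0.11 log2, limma adjusted p = 6.8e-06). These were 3 of the 4 lower genes among 20 regulators of p53, INK4 and RB, and 1 was higher. The shares of all genes, here and for the BCL2 family, were 8.86% lower and 5.9% higher. In the BCL2 family 2 of 14 were higher and 0 lower: the death genes Bid (2250 in the knockout, 656 in the wild type) and Bok (1920 and 616), with limma adjusted p of 1.2e-06 and 1.7e-05. Bid and Bok were also higher in the untreated knockout, by 2.14 and 1.85 log2.

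Of 24 genes of Akt and PI3 kinase signalling 2 were higher and 4 lower, against 5.9% and 8.86% of all genes. Akt1 was among the lower. With equal array medians 4 were higher and 3 lower, against 13.8% and 5.81% of all genes. Phlpp1, a phosphatase that acts on Akt, measured 1080, 1120 and 1070 in the knockout, against 468, 534 and 446 in the wild type (1.18 ± 0.13 log2, limma adjusted p = 1.5e-06). Pik3cb, a catalytic subunit of PI3 kinase, averaged 149 in the knockout and 391 in the wild type (-1.39 ± 0.22 log2, limma adjusted p = 9.8e-05). Both had like differences untreated, of 1.08 and -1.47 log2. Of 22 FOXO factors and targets 4 were higher and 2 lower with the deposited scaling, against 5.9% and 8.86% of all genes. Fbxo32, the ubiquitin ligase atrogin-1, averaged 1540 in the knockout and 124 in the wild type (3.63 ± 0.43 log2, limma adjusted p = 4.6e-06). The transcription factor Klf4 averaged 221 in the knockout and 1360 in the wild type (-2.63 ± 0.24 log2, limma adjusted p = 1.5e-07) and Sesn3, a sestrin that restrains mTORC1, 383 and 755.

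Immediate early genes are switched on by growth factors within minutes. Of 25, 9 were higher and 1 lower, against 5.9% and 8.86% of all genes, and 8 of the 9 were also higher untreated. The nuclear receptor Nr4a2 measured 375, 416 and 289 in the knockout, against 112, 59.1 and 93.3 in the wild type (2.06 ± 0.24 log2, limma adjusted p = 3.6e-06). Nr4a1, of the same family, averaged 772 in the knockout and 245 in the wild type, Ier2 1100 and 518, and Myc, a driver of growth, 2180 and 1070. All 4, picked by small p, were above the wild-type range on every knockout array. Over the list of 25, 13 genes lay wholly higher and 3 wholly lower, against 16% and 19.8% of all genes. Of 15 ERK feedback inhibitors 1 was higher and 2 lower at 4 h. Untreated, 1 was higher and 7 lower, against 7.77% and 9.83% of all genes. The phosphatase Dusp4 averaged 336 in the knockout and 1440 in the wild type (-2.10 ± 0.55 log2, limma adjusted p = 0.012), and Dusp5 328 and 826 (limma adjusted p = 0.02). Without replicate 0 of the wild type neither passed.

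**Figure D4:**
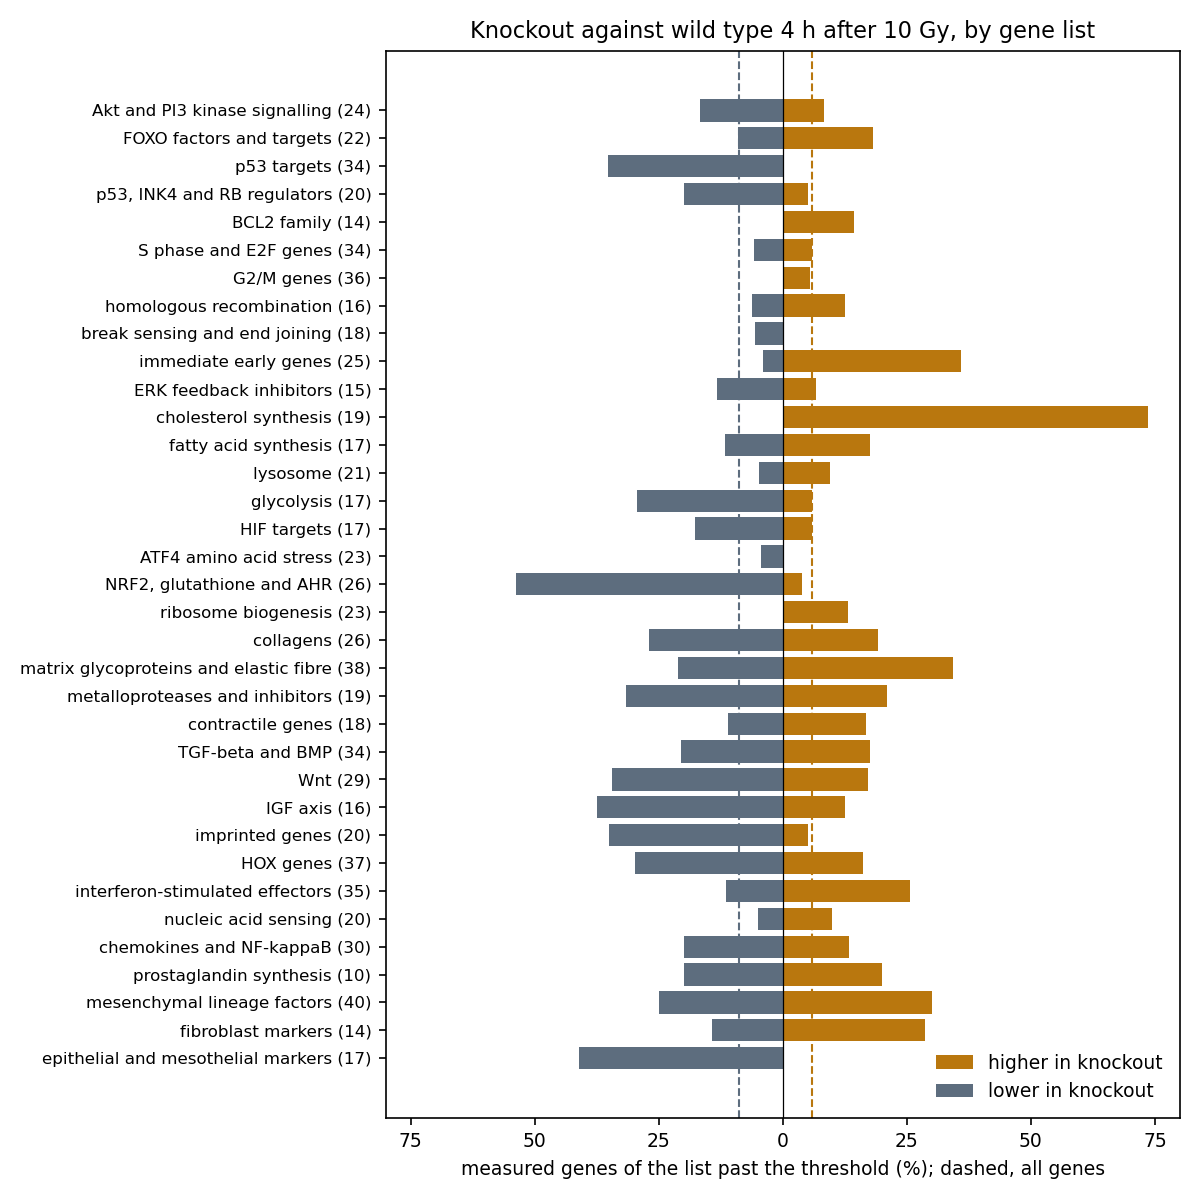
Percent of measured genes higher (positive side) and lower (negative side) in the knockout at 4 h, against the wild type, by gene list. The endothelial, blood, muscle and neural, pluripotency and Y-linked lists are left out. Dashed lines are the shares over all genes, 5.9% and 8.86%. Cholesterol synthesis has 14 of 19 higher and 0 lower, p53 targets 0 higher and 12 of 34 lower, and the list of NRF2, glutathione and AHR genes 14 of 26 lower.

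Genes of xenobiotic and glutathione metabolism were lower for 14 of 26 and higher for 1, against 8.86% and 5.9% of all genes. The list median was -0.73 log2 at 4 h and -0.70 log2 untreated. Ahr, the receptor for dioxins, measured 162, 184 and 111 in the knockout, against 3150, 2570 and 3800 in the wild type. The wild-type arrays were far above, and Ahr was 21.0-fold lower (-4.39 ± 0.22 log2, limma adjusted p = 8.7e-11). Its target Cyp1b1 measured 1020, 919 and 953 in the knockout, against 15700, 12000 and 9380 in the wild type (12.5-fold lower). Gsta4, a glutathione transferase, averaged 117 in the knockout and 2530 in the wild type (limma adjusted p = 1.3e-08). Of the 14 lower genes 13 were lower untreated as well. Nqo1, a quinone reductase, averaged 280 in the knockout and 489 in the wild type at 4 h (-0.80 ± 0.20 log2, limma adjusted p = 0.0091), with an untreated difference of 0.15 log2.

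The largest differences were of genes near background in 1 of the lines. Zic1, a zinc finger transcription factor of neural and mesodermal development, measured 2710, 2800 and 2610 in the knockout, against 3.34, 1.47 and 12.6 in the wild type, at least 56.0-fold higher (a difference of 9.42 log2). Tnmd, a marker of tendon cells, measured 2280, 2140 and 2500 in the knockout, against 5.25, 25.5 and 21.2 in the wild type, at least 47.6-fold higher. Ripk3, the kinase of necroptosis, measured 1120, 1220 and 1170 in the knockout, against 22.6, 24.8 and 13.4 in the wild type, at least 24.2-fold higher (limma adjusted p = 1.2e-06). All 3 wild-type arrays were under background for each. Rpl39l, a copy of the ribosomal protein gene Rpl39, averaged 8090 in the knockout and 7.16 in the wild type, and Rps4l, a copy of Rps4x, 14.1 and 7000. Binding of the near-identical parent's RNA to these probe sets was not tested.

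Lower in the knockout were Efemp1, a fibulin, at 1.9, 11.8 and 2.52, against 2920, 2530 and 2910 in the wild type, at least 57.5-fold. Ptgis, the prostacyclin synthase, measured 54.7, 5.79 and 13.7 in the knockout, against 8050, 5290 and 4890 in the wild type, at least 118-fold lower. Tcf21, a mesenchymal transcription factor, averaged 7.95 in the knockout and 2170 in the wild type. Of the retinal dehydrogenases, which make retinoic acid, Aldh1a1 averaged 7.58 in the knockout and 2250 in the wild type, and Aldh1a2 11.1 in the knockout and 2700 in the wild type. In the untreated cells the same genes stood on the same sides, with Ptgis at 23.5, 54.4 and 44.7 in the knockout and 5710, 5120 and 6210 in the wild type.

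Markers of mesothelium, the lining of body cavities, were read from a list of 17 epithelial and mesothelial markers. Of the 17, 7 were lower and 0 higher in the knockout at 4 h, against 8.86% and 5.9% of all genes. The 5 taken as mesothelial were all lower at 4 h, with a median of -7.13 log2, and all 5 were lower untreated. The uroplakin Upk3b measured 28.3, 26.7 and 11.1 in the knockout, against 9920, 10200 and 13100 in the wild type, at least 227-fold lower. Upk1b measured 41.6, 40.2 and 39.2 in the knockout, against 5200, 5270 and 6570 in the wild type, and the transcription factor Wt1 33.2, 21.7 and 18.4, against 2170, 1870 and 2720. All knockout values of these 3 genes are below background. The summed level of the 5 was 121 to 176 in the knockout, 21100 to 28000 in the wild type and 55.0 to 86.7 in the line labelled R. Of the other 12, taken as epithelial, 5 were above background in at least 1 line and 2 were lower. Among these 2 was the keratin Krt14, at 4.4 in the knockout and 777 in the wild type. The sums of the 12 were 232 to 364 in the knockout and 1040 to 1480 in the wild type. In such bulk samples fewer cells of a type and less RNA per cell cannot be told apart. The part of these marker levels in the other differences was not tested. Endothelial markers were above background in at least 1 line for 2 of 12 (sums 430 to 511 in the knockout, 489 to 821 in the wild type). Blood markers were so for 3 of 11 (563 to 618 and 1100 to 1180).

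HOX genes split by cluster. The list of 37 measured genes also holds HOX cofactors such as Meis2. Of these 37, 6 were higher and 11 lower in the knockout at 4 h, against 5.9% and 8.86% of all genes. The same 17 were called in the same direction untreated. In the HOXC cluster 5 of 7 were higher, with Hoxc8 at 2280, 2080 and 2220 in the knockout, against 2.07, 18.1 and 36.7 in the wild type, at least 45.4-fold. Hoxc6 averaged 1260 in the knockout and 17.9 in the wild type (6.14 ± 0.31 log2, limma adjusted p = 8.7e-11), and Hoxc9 1110 and 16.2. In the HOXB cluster 0 were higher and 5 of 8 lower, with Hoxb2 at 11.2, 15.4 and 8.45 in the knockout, against 905, 1100 and 1080 in the wild type, at least 21.2-fold. In the HOXA cluster 1 of 9 was higher and 4 were lower, Hoxa3 by -2.06 ± 0.16 log2 (limma adjusted p = 1.4e-08) and Hoxa5 by -2.33 ± 0.21 log2. None of 8 HOXD genes passed at 4 h, and 1 was above background in at least 1 line. The HOX cofactor Meis1 averaged 253 in the knockout and 677 in the wild type, and Meis2 528 in the knockout and 1650 in the wild type.

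**Figure D5:**
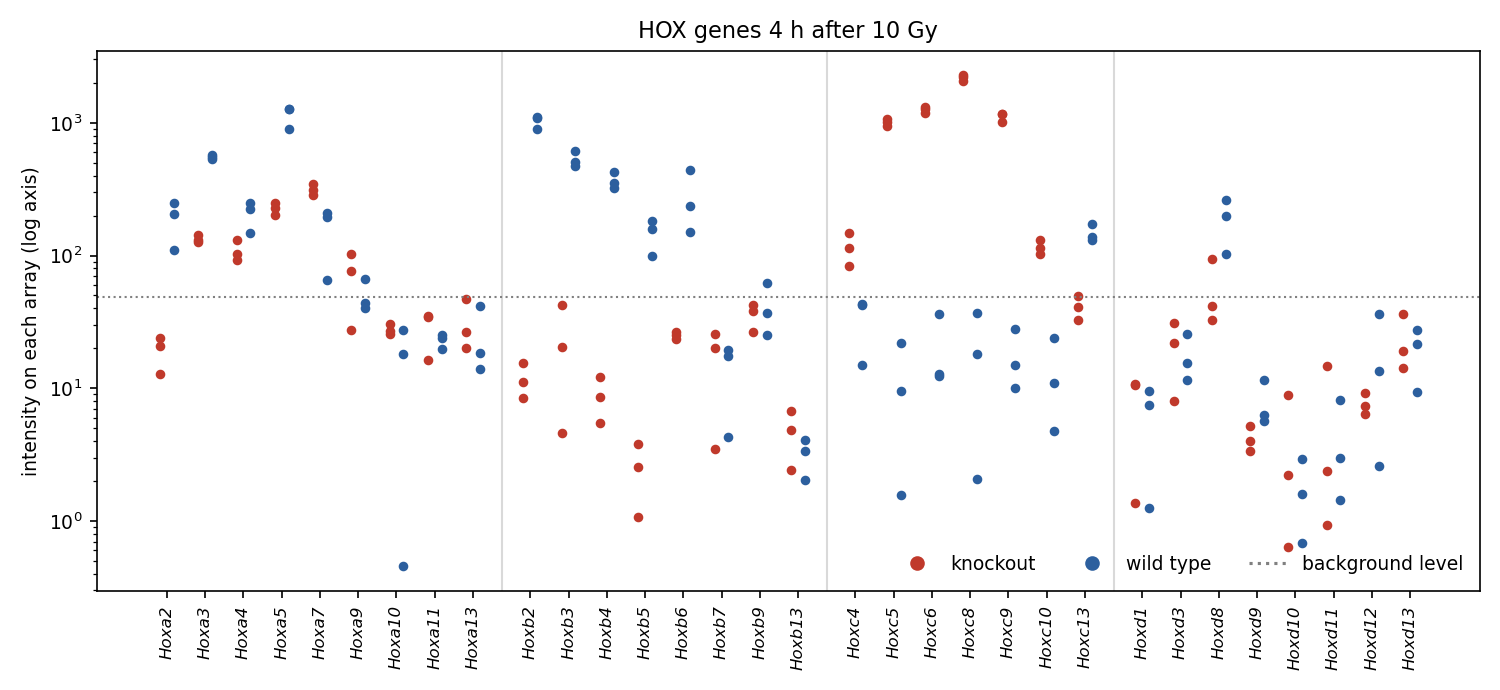
Intensity (log axis) of 32 HOX genes on the knockout (red, left) and wild-type (blue, right) arrays at 4 h, grouped by cluster, with the background as a dotted line. Hoxc5, Hoxc6, Hoxc8 and Hoxc9 are above background in the knockout and below it in the wild type, and Hoxb2 to Hoxb6 show the opposite.

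Lineage factors and growth factor systems followed the same divide. Of 40 mesenchymal lineage factors 12 were higher and 10 lower, against 5.9% and 8.86% of all genes, and 10 and 9 of these were so in untreated cells. Snai2, a repressor of epithelial genes, averaged 8440 in the knockout and 3620 in the wild type (1.22 ± 0.10 log2, limma adjusted p = 4.4e-08), and the transcription factors Ebf1 725 and 42.3, and Gata6 48 and 1490, in the same order. In the IGF axis 2 of 16 were higher and 6 lower, the same 8 as in untreated cells. The growth factor Igf2, an imprinted gene, measured 82.2, 15.2 and 49.6 in the knockout, against 9040, 8080 and 9200 in the wild type, at least 151-fold lower. The binding protein Igfbp2 averaged 27.3 in the knockout and 2110 in the wild type, Igfbp4 423 in the knockout and 8930 in the wild type, and Pappa, the protease that cleaves Igfbp4, 838 in the knockout and 57.1 in the wild type. Grb10, an imprinted adaptor that dampens insulin and IGF receptors, averaged 35.5 in the knockout and 3610 in the wild type. Of 20 imprinted genes 7 were lower and 1 higher.

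In the TGF-beta and BMP list 6 of 34 were higher and 7 lower, against 5.9% and 8.86% of all genes. With equal array medians 9 were higher and 6 lower, against 13.8% and 5.81% of all genes. Bmp4 measured 313, 295 and 327 in the knockout, against 6430, 6520 and 6470 in the wild type, 20.8-fold lower with little spread in either line (-4.38 ± 0.29 log2, limma adjusted p = 1.7e-09). Its antagonist Grem1 measured 13000, 12500 and 11400 in the knockout, against 2890, 1950 and 710 in the wild type, 7.72-fold higher (limma adjusted p = 3e-06). In the Wnt list 5 of 29 were higher and 10 lower. Among the lower were the ligand Wnt4 (57.8 in the knockout, 934 in the wild type) and the secreted antagonist Sfrp1 (84.7 and 908). The Wnt counts depend on scaling: 6 higher and 6 lower after quantile normalization, and 7 and 6 with equal array medians.

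Matrix genes went both ways. Of 38 matrix glycoprotein and elastic fibre genes 13 were higher and 8 lower, against 5.9% and 8.86% of all genes. Postn, periostin, measured 12000, 13100 and 13800 in the knockout, against 1550, 1310 and 732 in the wild type, 11.4-fold higher (limma adjusted p = 1.4e-08), and its departure from the untreated difference was 1.51 log2 (unadjusted p = 0.00089, limma adjusted p = 0.41). Loxl1, which crosslinks elastin, averaged 424 in the knockout and 5550 in the wild type (-3.71 ± 0.20 log2, limma adjusted p = 1.7e-10). Has2, a hyaluronan synthase, measured 6320, 5190 and 5020 in the knockout, against 1630, 583 and 328 in the wild type. Thbs2, a thrombospondin, averaged 4640 in the knockout and 1380 in the wild type at 4 h, and 5060 and 3660 untreated, and is among the 19 genes whose departure passed without the 5 arrays (1.78 ± 0.31 log2, limma adjusted p = 0.044). Of 19 metalloproteases and inhibitors 4 were higher and 6 lower, with Timp3, an inhibitor, at 926 in the knockout and 9880 in the wild type. Of 26 collagens 5 were higher and 7 lower.

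Contractile and surface genes included Myl9, a myosin light chain at 10900 in the knockout and 775 in the wild type (3.81 ± 0.29 log2, limma adjusted p = 1.1e-08), and Cnn1, calponin, at 100 and 1080. Of 18 contractile genes 3 were higher and 2 lower, against 5.9% and 8.86% of all genes. Without the 5 arrays 7 were higher and 2 lower, against 8.54% and 10.7% of all genes. Among the fibroblast markers 4 of 14 were higher and 2 lower with all arrays, against 5.9% and 8.86% of all genes. Thy1 measured 9620, 10600 and 9990 in the knockout, against 1120, 1490 and 858 in the wild type (3.16 ± 0.24 log2, limma adjusted p = 1.2e-08), and the proteoglycan Dcn averaged 2320 in the knockout and 6920 in the wild type. The Thy1 difference exceeded the untreated one by 1.30 log2 (unadjusted p = 0.0012, limma adjusted p = 0.47).

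Innate immune genes were mixed. Their counts are read against 5.9% higher and 8.86% lower of all genes. Of 35 interferon-stimulated effectors 9 were higher and 4 lower, with a median of 0.68 log2 (all genes -0.05). Of 20 nucleic acid sensors 2 were higher and 1 lower, near the shares of all genes. The antiviral Ifit1 measured 239, 239 and 276 in the knockout, against 60, 28.1 and 38.6 in the wild type, at least 4.83-fold higher. Cgas, the sensor of cytosolic DNA, measured 1000, 1080 and 1020 in the knockout, against 282, 357 and 242 in the wild type (1.84 ± 0.24 log2, limma adjusted p = 1.1e-05). Both genes were also higher untreated, by 2.34 and 1.62 log2. Of 30 chemokine and NF-kappaB genes 4 were higher and 6 lower. Without the 5 arrays 10 were higher and 5 lower, against 8.54% and 10.7% of all genes. Ccl9 was at 883 in the knockout and 103 in the wild type, and Saa3, an acute phase protein, at 3930 and 12400. Of 10 prostaglandin synthesis genes 2 were higher and 2 lower.

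The remaining metabolic and stress lists are read against 5.9% higher and 8.86% lower of all genes. Glycolysis had 1 of 17 higher and 5 lower, HIF targets 1 of 17 and 3, lysosomal genes 2 of 21 and 1, ATF4 targets 0 of 23 and 1, and ribosome biogenesis 3 of 23 and 0. Leaving out the 5 arrays, ATF4 targets had 2 higher and 1 lower, and ribosome biogenesis 5 and 0. Within the HIF list Adm, the vasodilator peptide adrenomedullin, measured 1630, 1620 and 984 in the knockout, against 41.7, 59.2 and 77.2 in the wild type (4.58 ± 0.56 log2, limma adjusted p = 5.9e-06). Egln3, a prolyl hydroxylase that marks HIF for breakdown, measured 53.4, 37.8 and 24.2 in the knockout, against 673, 773 and 840 in the wild type. Members of this list thus lay at both ends, and each had a like difference in untreated cells, of 3.82 log2 for Adm and -3.98 log2 for Egln3.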

How the data were processed

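Total RNA of mouse embryonic fibroblasts was hybridised to Affymetrix arrays, 27 in 9 groups of 3, of which 6 form the comparison. The deposited intensity values are linear and were scaled by the authors, as the values show: the mean after trimming 2% at each end is 500.003 on every array. RMA and GCRMA are listed, per the submitters' processing notes, with no role or version. The values do not have the form that either gives, and the summary method is not given in the sources used here. No further normalization was applied before log2.

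Of 45101 probe sets, 34945 carry 1 gene symbol in the platform annotation, 932 several and 9160 none, beside 64 controls. The brightest was kept per gene (18193 genes, 9010 with several probe sets). Background, 48.3, is the maximum over 243 values, from 9 probe sets of Eif2s3y, Kdm5d and Uty. Where a group mean was below background, the fold is a bound: the bright mean over the dim group's mean of, per array, the higher of background and its own value.

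limma 3.58.1 in R 4.3.3 fitted 9 group means (18 residual degrees of freedom, no block), with two-sided tests at 0.05 after Benjamini-Hochberg adjustment over all genes of a contrast. On simulated data for knockout minus wild type at 4 h over 18193 genes it recovered 5, 25, 48 and 50 of 50 genes shifted by 0.5, 1, 2 and 4 log2, with 6 false calls. The shifted genes were drawn from the brighter genes only, so the recovery of dim genes was not tested. No other genes were shifted, while 2685 were called in the data. The adjustment was thus stricter than in the data, and the recovery of small shifts there was not tested. Same-numbered arrays of the lines correlated at 0.068, -0.014 and 0.12 at 4 h, which misses the rule that every pair exceeds 0.1. Untreated they correlated at 0.55, 0.45 and 0.74, which meets it. Replicate 2 of both untreated lines is among the 5 arrays of high Gapdh ratio, and the part of this in the correlations was not tested.

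The comparison and the gene lists were chosen with earlier results of these data known, and genes were named by a rule (Akt1, Akt2, Cdkn1a, Mdm2, Ccng1, the 15 largest called differences in each direction and 4 genes a list by smallest p), others after their values were seen. Promoters were available for 25 of 34 p53 targets and 15 of 19 cholesterol genes. Alternatives were the replicate block, the compared arrays alone, an intensity trend, a filter on dim genes, other scalings, other probe set rules, an offset of 16 and leaving out arrays. The set of 5 arrays was added after seeing the data.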

Additional observations from a re-analysis of the deposited data

Results flagged for a closer look

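The difference between knockout and wild type itself differed between 4 h and untreated cells, by the limma test of the difference, for 2 genes. For C430042M11Rik the 4 h difference minus the untreated one was -5.53 ± 0.85 log2 (limma adjusted p = 0.025). It measured 1.25, 2.61 and 2.81 in the knockout at 4 h, against 17.2, 36.2 and 14.8 in the wild type, and averaged 8.8 in the untreated knockout and 1.9 in the untreated wild type. For D630004K10Rik the same value was -3.14 ± 0.41 log2 (limma adjusted p = 0.0055). It measured 38.9, 33.3 and 38.8 in the knockout at 4 h, against 18.9, 24.6 and 24.3 in the wild type, and averaged 38.1 in the untreated knockout and 2.63 in the untreated wild type. All of these values are below the background of 48.3, so they are no measured levels.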

How the results depend on the processing

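The count of genes called at 4 h, 2685, was 1974 to 3562 under the other settings and 2073 to 2379 without each replicate. Where each probe set was tested, 3809 probe sets were called. The untreated count, 3202, was 1258 in a fit of the compared arrays only, 2634 to 4419 under the other settings and 2505 to 3080 without each replicate. By probe set it was 4565. The number of genes whose 4 h difference departed from the untreated one, 2, was 1 with the compared arrays only and with an offset of 16, 0 with an intensity trend (1010 at an unadjusted p below 0.05) and among genes above the median level (511), 19 without the 5 arrays, and 1 to 8 without each replicate, 8 without WT_untreated replicate 2. With the replicate block it was 1, while 2684 genes were called at 4 h and 3222 untreated. That fit lost 2 of the named genes. Of 181 named genes 150 passed at 4 h. Of these, 112 passed in every alternative run for them (17, or 16 where the gene was not above the median level), 38 were lost in at least 1 (25 with the compared arrays only, 16 with the mean of probe sets, 10 with equal array medians, 7 without the 5 arrays), and 0 reversed. Mdm2 had an adjusted p of 7.2e-06 to 0.24 over these. The causes were not tested. Shares higher and lower depend on scaling, and levels near background have wide spread. In the simulation, which shifted few genes, 5 of 50 differences of 0.5 log2 were recovered.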
